A study of Triticum aestivum with 24 samples.

Results

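The 200 probe sets described here had the largest common loss of signal under drought in wheat flag leaves: each was lower under drought in all 4 plant materials of the study. They were chosen from the measured values. For each of the 61115 probe sets left after the array controls were removed, the median of log2(signal + 16) over the 3 arrays of a group was taken, the drought median was subtracted from the irrigated median within each material, and the smallest of the 4 differences became the score. The members are the 200 highest scores. Every drought value below therefore describes how the members were chosen and carries no test. Only 15 members, from 12 genes, had a gene name in the platform annotation. The other 185 are unnamed here.

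The flag leaf, the uppermost leaf of a wheat stem, supplies much of the sugar that fills the grain. When water runs short, stomata close, carbon fixation slows and growth is held back, and leaves of cereals are known to lower many transcripts of photosynthesis, protein synthesis and growth while they raise protective ones. A transcript that falls in susceptible and in tolerant plants alike belongs to what these plants have in common under drought.

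The leaves came from bread wheat, Triticum aestivum, at the reproductive stage, and total RNA was hybridised to 24 Affymetrix wheat arrays. The materials were a bulk of drought-tolerant recombinant inbred lines, a bulk of drought-susceptible ones, each a pool of 10 lines, the drought-tolerant parent C306 and the drought-susceptible parent WL711. Each was grown under drought and under irrigation, with 3 arrays in each of the 8 groups. The submitters call the 3 arrays biological replications without saying whether they were different plants. The p-values below cover only array-to-array spread, and that may be technical. Neither the length nor the severity of the drought is given in the sources used here. In whole leaves, fewer cells of a type and less RNA per cell cannot be told apart, and with 1 parent or 1 pool on each side no difference can be assigned to tolerance itself.

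A few arrays stood apart from their groups. WL711 drought array 1 correlated with the 3 irrigated WL711 arrays at r = 0.940 to 0.944 over the probe sets tested, but with the other WL711 drought arrays at 0.893 and 0.908, while those 2 correlated with each other at 0.955. The mean log2 signal of the hybridisation spike-in controls was 14.1 and 13.6 on C306 drought arrays 1 and 3, 12.7 on array 2, and between 11.6 and 12.7 on the arrays of all other groups. EF1a, whose 3' minus 5' probe set difference is a sign of RNA quality, had differences from log2 1.42 to 2.80 on the irrigated arrays of the tolerant bulk and from -1.19 to 0.19 on those of C306. The same difference for GAPDH overlapped, at -0.65 to 1.21 in the irrigated tolerant bulk and 0.27 to 0.91 in irrigated C306. Of the leaf markers, the 23 probe sets tested had a median mean signal of 339, with PRK, PsbO and PsbP at 43152, 41774 and 39266 on their brightest ones. The 6 grain marker probe sets tested, of 22, had a median of 89.1.

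**Figure D1:**
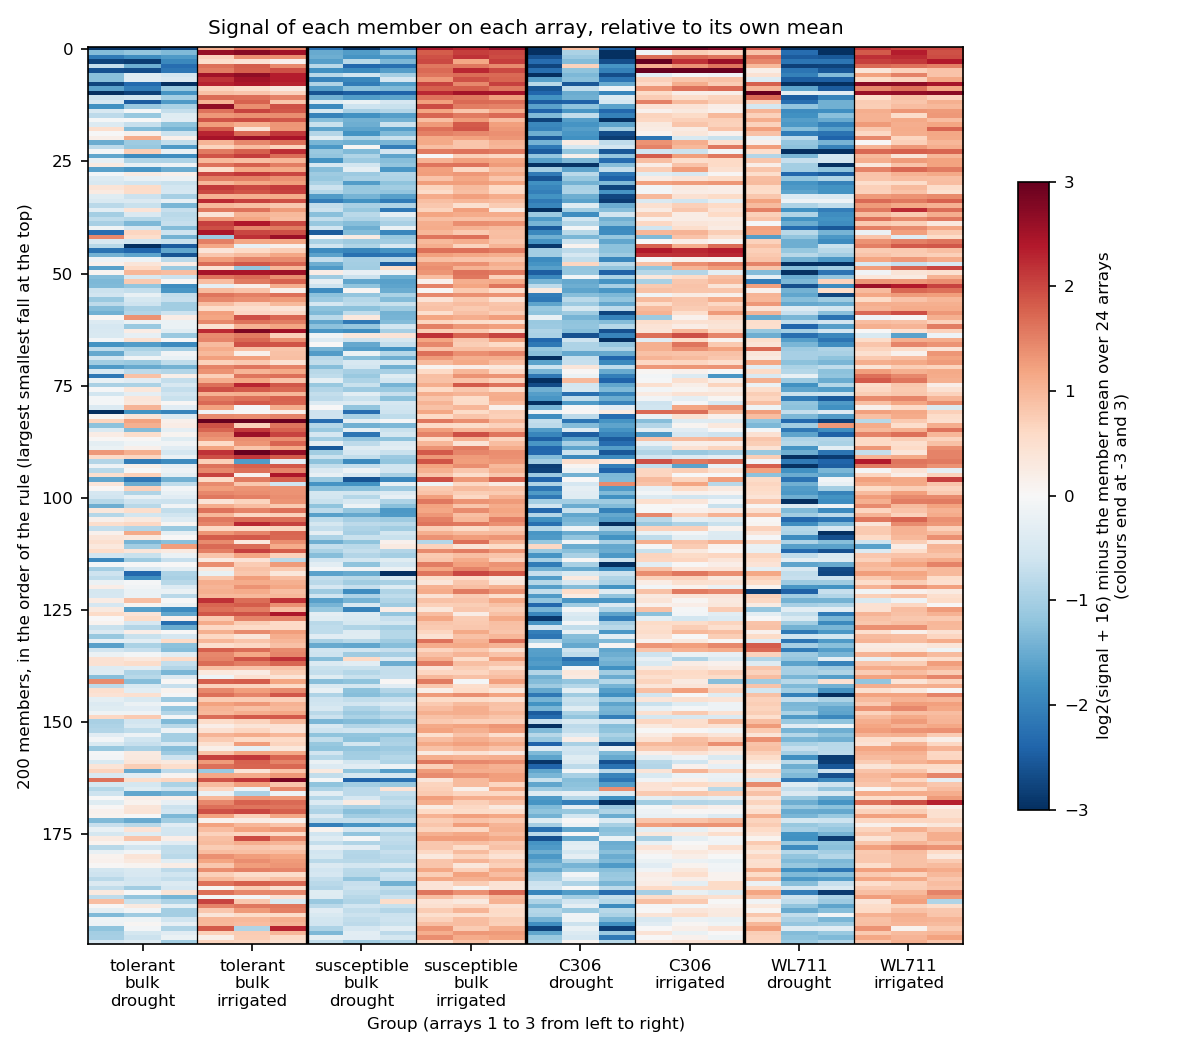
Each row is 1 of the 200 members in the order of the rule, each column 1 array, and the colour is log2(signal + 16) minus the member's own mean over the 24 arrays. Drought columns are mostly blue and irrigated columns mostly red, except that WL711 drought array 1 is coloured more like the irrigated arrays. Members whose level differs between materials can depart from this, as Ta.2852.3.S1_a_at does, which is below its mean in irrigated C306.

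The median member stood at -1.56 in the tolerant and -1.88 in the susceptible bulk, and at -1.67 in C306 and -2.06 in WL711, as differences of drought minus irrigated medians on the log2(signal + 16) scale. Over all 36669 probe sets tested the same median was -0.02, -0.11, -0.001 and 0.06. The signal left under drought, as a share of the irrigated signal, had a median over the members of 31.0% in the tolerant and 25.7% in the susceptible bulk, and of 25.8% in C306 and 21.4% in WL711. The deepest differences of any member were -5.06, -4.96, -5.42 and -6.03 in these materials.

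Members differed in how evenly the 4 materials shared the loss. For 101 members the largest difference was the one in WL711, for 44 that in the susceptible bulk, for 34 that in C306 and for 21 that in the tolerant bulk. The smallest difference, which set the score, was most often that in the tolerant bulk (70 members) or C306 (62), and less often that in WL711 (36) or the susceptible bulk (32). The 4 differences of a member lay within 0.5 of each other for 22 members, and 13 members were lower by more than 2 log2 units in every material. The median distance between a member's largest and smallest difference was 1.07. Whether the materials differ in depth of loss was not tested, because the rule used those differences.

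**Figure D2:**
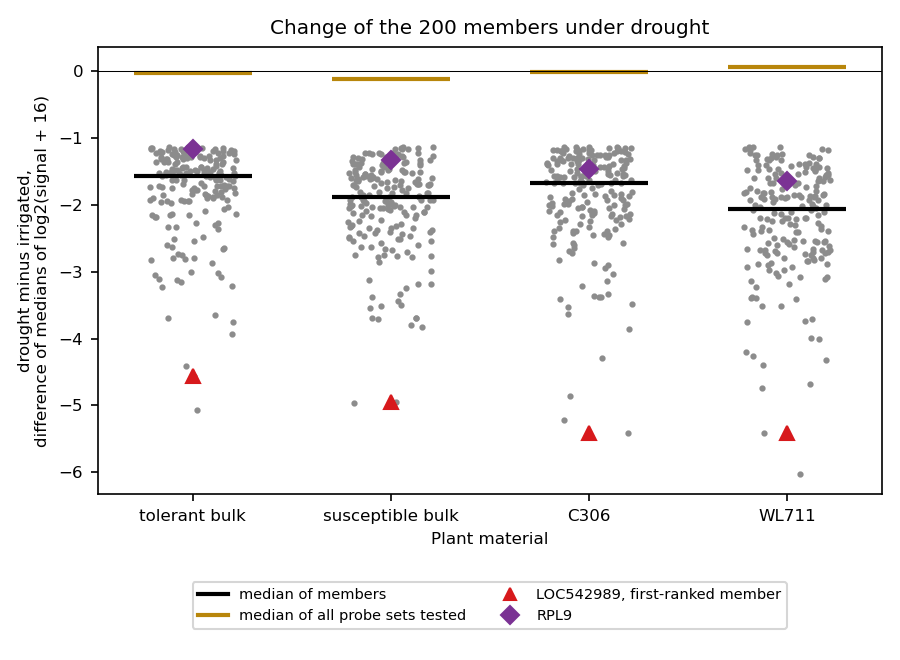
Each grey point is 1 of the 200 members and shows its drought minus irrigated difference of group medians on the log2(signal + 16) scale, by plant material. Black bars mark the median of the members (-1.56 to -2.06), gold bars that of all probe sets tested, triangles the first-ranked LOC542989 probe set and diamonds RPL9.

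Array by array, the members' median signal was lower on every drought array than on every irrigated array of the same material, though narrowly so for 1 WL711 array. In the tolerant bulk it stood at log2 8.77, 8.92 and 8.61 on the drought arrays, against 10.5, 10.5 and 10.5 on the irrigated ones. In the susceptible bulk it was 8.38, 8.24 and 8.11 under drought, against 10.2, 10.3 and 10.2 under irrigation, and in C306 it was 7.47, 8.43 and 7.65 under drought, against 9.72, 9.95 and 9.84. C306 drought array 2 lost less than arrays 1 and 3, which are the ones with the high spike-in signal. WL711 drought arrays 2 and 3 stood at 7.77 and 7.81, but array 1 stood at 9.78, close below the irrigated values of 10.1, 10.2 and 10.2.

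Counted by member, every drought array lay below every irrigated array for 182 of 200 members in the tolerant and 194 in the susceptible bulk, and for 173 in C306 and 134 in WL711. Over all probe sets tested the share was 17.3%, 30%, 20.4% and 16.2% in the same materials, and limma at an adjusted p of 0.05 called 7.6%, 11.2%, 11.9% and 9.02% of them lower under drought. Nothing is read from these counts, since the rule chose on the same differences. For 65 members WL711 drought array 1 lay within or above the range of the irrigated WL711 arrays, and its median distance from them was only -0.39. Without it, 196 members were separate in WL711. Fewer arrays separate more easily for any probe set, and the share over all probe sets without this array was not counted. In all 4 materials at once 108 members were separate, against 2.57% of the probe sets tested.

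**Figure D3:**
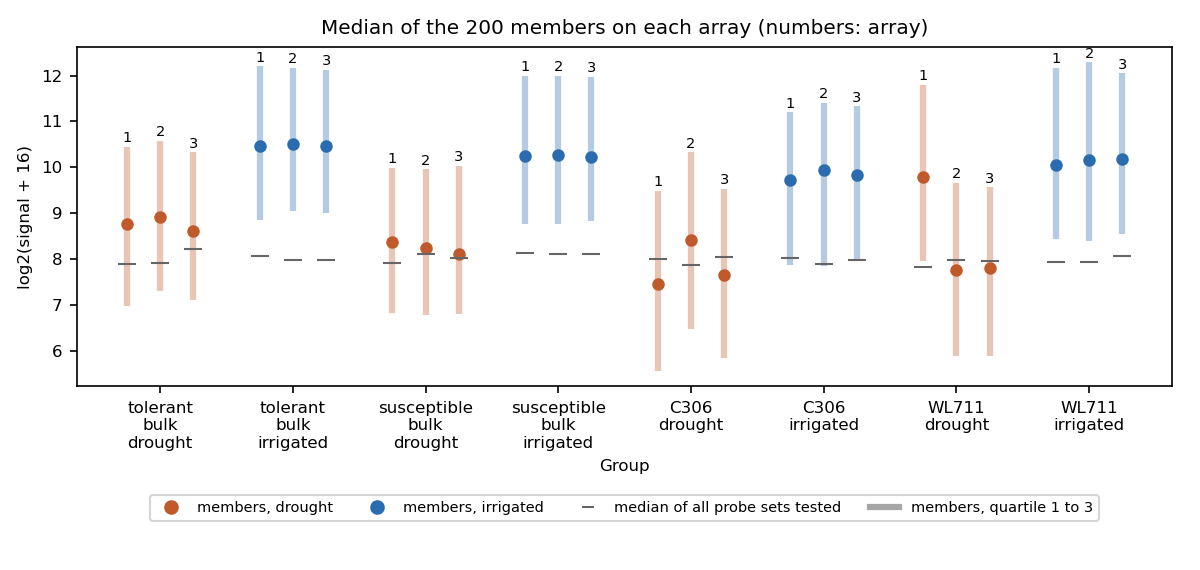
Points give the median log2(signal + 16) of the 200 members on each array, pale bars the range from the first to the third quartile of the members, and grey dashes the median of all probe sets tested. The drought arrays lie between 7.47 and 8.92, except WL711 drought array 1 at 9.78, and the irrigated arrays between 9.72 and 10.51.

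Among the named members, the only one whose gene has a descriptive name in the tables used here is RPL9 (LOC543077, probe set Ta.14183.1.S1_at), a protein of the large ribosomal subunit. The gene is also listed as CL9, and whether it serves plastid or cytosolic ribosomes is not stated there. Its signals were 3069, 3397 and 2129 under drought in the tolerant bulk and 2384, 1979.5 and 2205 in the susceptible bulk, against 6853, 6692 and 6874 and 5564, 6943 and 5511 under irrigation. In C306 they were 1293, 2493 and 1499.5 under drought, against 4006, 4466 and 4139 under irrigation. In WL711 they were 4565, 1966 and 1773 under drought, against 6167, 6772 and 5414 under irrigation. The 2 regimes did not overlap in any material, and WL711 drought array 1 and C306 drought array 2 were the highest drought arrays of their groups. The differences of medians were -1.15, -1.33, -1.46 and -1.64 in the tolerant bulk, susceptible bulk, C306 and WL711. From C306 drought array 2 alone the difference in C306 was -0.73.

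LOC542989, a gene with no function stated in the tables used here, led the ranking, and all 3 of its probe sets on the array were members. On the first-ranked one (Ta.28351.1.S1_s_at) the drought signals were 7.7, 2.9 and 14.4 in the tolerant bulk and 26.8, 7.8 and 21.3 in the susceptible bulk, against 408, 619 and 543 and 1139, 999 and 1283 under irrigation. In C306 they were 6.2, 374 and 21.0 under drought, against 1566, 1688 and 1431 under irrigation. In WL711 they were 779.9, 3.2 and 3.0 under drought, against 905, 799 and 796 under irrigation. The signal was thus near the bottom of the scale on 10 of the 12 drought arrays, and the exceptions were WL711 drought array 1 and C306 drought array 2. The 4 differences were -4.56, -4.95, -5.42 and -5.41 in the order above, and with C306 drought array 2 alone the C306 value was -2.02. Its probe sets Ta.28351.1.S1_x_at and Ta.28351.1.S1_at were members at ranks 10 and 118, with smallest differences of -2.16 and -1.28, both in the tolerant bulk. The 3 share a target sequence cluster and are not independent measurements.

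LOC543256 (Ta.3795.1.S1_x_at, rank 16) had its deepest loss in the susceptible bulk. Drought signals there were 304, 349.8 and 394, against 4289, 3768 and 4126 under irrigation. In the tolerant bulk they were 728, 562 and 982 under drought, against 3158, 3285 and 3354, and in C306 they were 497, 749.6 and 299 under drought, against 2021, 1874 and 2476. In these materials the regimes did not overlap, while in WL711 the drought signals of 2041, 345 and 524 overlapped the irrigated 2636, 1864 and 3143 through array 1. The 4 differences were -2.15, -3.50, -1.99 and -2.30 in the tolerant bulk, susceptible bulk, C306 and WL711.

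LOC542862, LOC542817 and LOC543499 were lower most of all in WL711. For LOC542862 (Ta.1197.1.S1_x_at) the WL711 drought signals were 3848, 609 and 601, against 6714, 5813 and 6443 under irrigation, a difference of -3.37, while its differences were -1.93, -1.70 and -1.66 in the tolerant bulk, susceptible bulk and C306. A second LOC542862 probe set (Ta.1197.1.S1_at) was a member too, at -1.75, -2.03, -1.62 and -2.98. A further, dim one with a mean signal of 56.3 stood at -1.56, 0.59, -0.96 and 0.99 and was not.

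For LOC542817 (Ta.23807.1.S1_x_at) the WL711 drought signals were 369.7, 73.3 and 57.5, against 319.6, 624 and 865 under irrigation, so that the groups overlapped through array 1. Its differences were -1.46, -2.28, -1.28 and -2.84. LOC543499 (Ta.1353.1.S1_at) had WL711 drought signals of 9871, 2468 and 2146, against 15886, 16851 and 14029.8 under irrigation, and differences of -1.33, -1.62, -1.21 and -2.68. In C306 its drought signals were 2409.6, 4856 and 2402, against 5355, 5950.4 and 5610.1, and with drought array 2 alone the C306 difference was -0.21.

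**Figure D4:**
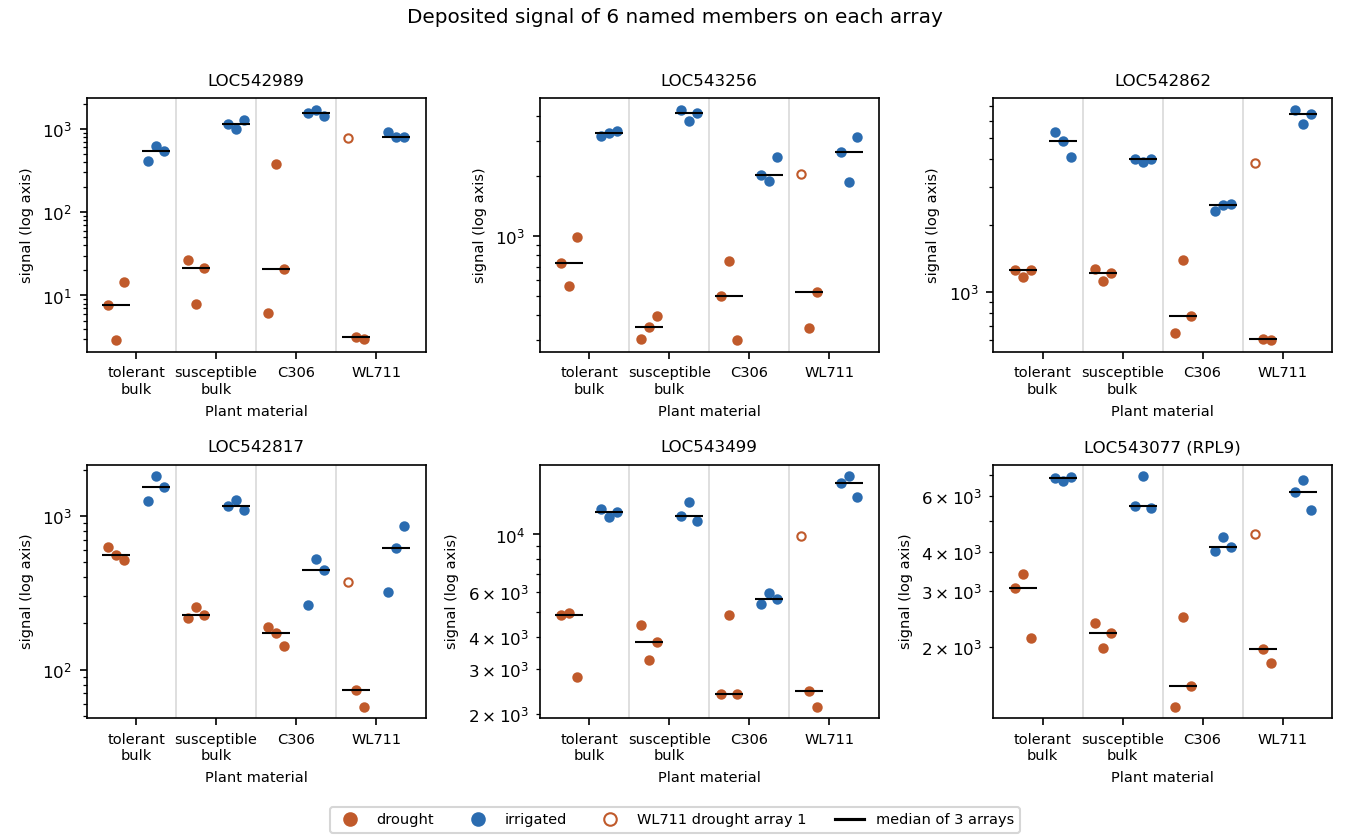
Deposited signal on a log axis for 6 named members on each array, with drought left of irrigated in each plant material, black bars at the median of 3 arrays and an open circle for WL711 drought array 1. LOC542989 is drawn for Ta.28351.1.S1_s_at and LOC542862 for Ta.1197.1.S1_x_at, and the open circle lies above the other 2 WL711 drought arrays in all 6.

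The other named members were LOC543329, LOC780661, LOC543355, LOC543174, LOC606390 and LOC543236, for which no function is stated in the tables used here. LOC543329 (Ta.137.1.S1_at) had differences of -1.50, -2.05, -2.26 and -2.39, and LOC543174 (Ta.14203.1.S1_at) of -1.18, -1.93, -1.16 and -2.25. The loss of LOC606390 (TaAffx.85521.1.S1_at) was the most even, at -1.23, -1.14, -1.14 and -1.18, and LOC543236 (Ta.228.1.S1_at) stood at -1.14, -1.55, -1.27 and -1.89. LOC780661 (Ta.6293.3.S1_s_at) stood at -1.33, -1.50, -1.29 and -1.88. Only 1 of the 6 LOC780661 probe sets was a member, and a brighter one, Ta.25111.1.S1_x_at, stood at 1.01, 0.24, 0.21 and 0.84. Another LOC606390 probe set, Ta.9366.1.S1_x_at, stood at -0.57, -0.51, -0.57 and -1.23, and a dim one, TaAffx.52581.1.S1_at, at -1.42, -0.48, 0.97 and -1.68.

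LOC543355 had 2 bright probe sets that did not behave alike. On the member (Ta.581.2.S1_a_at) the C306 drought signals were 4338, 16616 and 6179.6, against 17249.8, 18272 and 18277 under irrigation, and the differences were -1.46, -1.26, -1.56 and -1.59. With C306 drought array 2 alone the C306 value was -0.14. On Ta.581.1.S1_at the differences were -1.04, -0.87, 0.36 and -0.27, so this gene was not lower in all materials on both.

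The unnamed members with the highest scores, at ranks 2 and 3, were TaAffx.8804.3.S1_s_at and TaAffx.8804.1.S1_s_at. For TaAffx.8804.3.S1_s_at the drought signals were 97.2, 106 and 95.7 in the tolerant bulk, against 1704, 1822 and 1573 under irrigation, and 82.0, 70.7 and 102 in the susceptible bulk, against 960.2, 1159 and 1098. In C306 they were 8.7, 129 and 14.0 under drought, against 242.5, 452 and 418.5 under irrigation. In WL711 they were 486, 41.3 and 4.2 under drought, against 986, 1417 and 1034. The differences of this probe set were -3.93, -3.51, -3.86 and -4.20, and the C306 value rests on drought arrays 1 and 3, near the bottom of the scale. The third probe set of that sequence cluster was also a member, and its smallest difference was -3.21. At the other end, the last members inside the rule were Ta.9210.1.S1_a_at and Ta.769.1.S1_at, with scores of 1.127 and 1.126, and the first outside were TaAffx.107121.1.S1_s_at and TaAffx.143995.23.S1_at, with 1.125 and 1.122. The threshold thus fell in a continuous run of values: 319 probe sets had a score above 1, and 8081, or 13.2%, were lower under drought in all 4 materials by some amount.

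By the number of the sequence cluster in the identifier they came from 175 clusters, and 47 members fell in 22 clusters that held 2 or 3 of them. In 9 of those clusters all probe sets on the array were members, so part of the set is repeated measurement of the same transcripts. Probe sets that match several transcripts took larger shares of the members than of the probe sets tested. Those ending in _a_at, which target variants of 1 gene, made up 15.5% of members and 8.05% of the probe sets tested. Those ending in _s_at, which match several genes, made up 11% and 5.47%, and those ending in _x_at, which may cross-hybridise, 17.5% and 13.6%. Bread wheat carries most genes in several homoeologous copies, and which copy gave the signal was not tested. The mean signal of a member ran from 32.2 to 28923, and 62 members had a drought median under 39.1 in at least 1 material, where differences are compressed by the added 16.

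Few members could be placed in a functional group. Of 10 gene lists, 1 held a member, that of translation, through RPL9. The lists were matched by gene name, and RPL9 is the only member gene with a descriptive one. The lists therefore cannot show which functions are absent from the members. The other translation probe sets, chosen by symbol with earlier results known, did not share its loss to the same degree: 4 of the 10 tested, RPL9 included, were lower in all 4 materials and 0 were higher in all, beside 18.8% lower among all probe sets tested. The initiation factor subunit eIF-2-beta stood at -0.34, -0.81, -0.28 and -1.89 in the tolerant bulk, susceptible bulk, C306 and WL711, the cap-binding protein NCBP at -0.31, -0.95, -0.98 and -1.30, and 1 probe set of the elongation factor TEF1 at -0.73, -0.89, -0.39 and -0.85. The median of the list was -0.36, -0.60, -0.34 and -0.88.

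In the photosynthesis list 5 of 25 probe sets tested were lower in all 4 materials, or 20%, and 0 were members. Whether unnamed members belong to photosynthesis was not tested. The nearest was 1 probe set of FBP, a fructose bisphosphatase, at -1.09, -1.10, -0.80 and -1.25. A dim FBP probe set, with a mean signal of 69.6, stood at -0.89, -0.15, 1.24 and -1.45. A dimmer probe set of PsbP, a subunit of the oxygen-evolving complex of photosystem II, stood at -2.65, -2.39 and -2.40 in the tolerant bulk, susceptible bulk and WL711 but at -0.64 in C306. The brighter PsbP probe set went differently, at -0.45, -0.62 and -0.56 in those materials and lowest in C306, at -1.17. Of 24 histone and tubulin probe sets 7 were lower in all 4 materials, and of 10 antioxidant ones 3. Of the 10 dehydrin and LEA probe sets, genes known to be raised in drying tissue, 5 were tested, of which 4 were higher in all 4 materials and 0 lower, beside 16.6% higher among all probe sets tested.

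Since the rule used only differences between regimes, the level of a member in 1 material against another, averaged over both regimes, is a separate measurement and was tested. With equal spread in all groups such a mean does not depend on the difference between the regimes. Spread did not look equal: array pairs correlated at 0.920 to 0.925 within C306 drought and at 0.955 to 0.961 within C306 irrigated. The choice of members can then bear on the mean level as well, and how far it does was not tested. An array that leaves its group, as WL711 drought array 1 does, also enters the mean with its full value. In the median that chose the members it has less weight but still takes part. Without it 174 of the 200 members stayed among the highest 200 scores. Results are therefore given with and without that array. Of the 200 members 194 passed the filter on dim probe sets, which removed the 40% with the lowest mean of log2(signal + 16), a mean that corresponds to a signal of 39.1. The 6 left out had arithmetic mean signals of 32.2 to 51.2, which can lie above it. Values are log2(signal + 16) after centring of the arrays, and the test was limma over all 36669 of them with Benjamini-Hochberg adjustment. Each difference has its fitted standard error beside it, and each material has 6 arrays.

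Members stood higher in the tolerant bulk than in its tolerant parent C306 far more often than lower. Of 194 members 101 were called higher in the tolerant bulk, or 52.1%, and 12 lower, or 6.19%, while of all probe sets tested 22.2% were higher and 25% lower. The median member differed by 0.82, against -0.08 over all probe sets tested, and 152 of 194 members were positive.

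Leaving out the C306 drought arrays with high spike-in signal, 1 and 3, leaves array 2 alone, whose spread is then assumed to be like that of the other groups. Array 2 correlated with irrigated C306 arrays (r = 0.919 to 0.922) about as highly as with its own group (0.920 to 0.921). In that fit 65 members were higher and 17 lower, against 17.0% and 20.7% of all probe sets, with a median member of 0.50. Of the 101 members, 64 remained called and all 101 kept the sign. The EF1a 3' minus 5' difference, apart in these materials under irrigation as given above, overlapped under drought. It was -1.36 to 0.89 in the tolerant bulk and 0.42 to 1.47 in C306. That of actin overlapped under irrigation, at -1.895 to 1.25 and -0.73 to 1.91. The part of RNA quality in the result was not tested.

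Of the named genes 5 were among those higher in the tolerant bulk than in C306, and 0 among those lower. LOC780661 (Ta.6293.3.S1_s_at) was higher by 1.77 ± 0.41 (limma adjusted p = 0.000842), with signals of 249, 522 and 185 under drought and 589, 650.4 and 792 under irrigation in the tolerant bulk, against 56.9, 69.9 and 71.0 and 194, 213 and 170.4 in C306. In both regimes the lowest tolerant bulk array lay above the highest C306 array. LOC542817 was higher by 1.74 ± 0.30 (limma adjusted p = 4.68e-05), with 633, 554 and 520.5 under drought and 1249, 1820.2 and 1547 under irrigation in the tolerant bulk, against 190.4, 172 and 143 and 265, 527 and 442 in C306. These 2 calls held without C306 drought arrays 1 and 3 (limma adjusted p = 0.0128 and 0.00155).

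RPL9 was higher in the tolerant bulk by 0.67 ± 0.22 (limma adjusted p = 0.0128), LOC542862 (Ta.1197.1.S1_at) by 0.92 ± 0.29 (0.0109) and LOC543499 by 0.72 ± 0.28 (0.0401). All 3 calls ended without those 2 arrays, with values of 0.34, 0.53 and 0.34 and limma adjusted p of 0.294, 0.236 and 0.462. With WL711 drought array 1 left out as well, the values were the same and LOC542862 was called again (limma adjusted p = 0.00299), unlike RPL9 (0.108) and LOC543499 (0.163). The call of LOC543499 also ended without any 1 of 9 arrays. The other LOC542862 probe set was not called.

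Among unnamed members the largest rise in the tolerant bulk over C306 was that of Ta.2852.3.S1_a_at, at 3.20 ± 0.36 (limma adjusted p = 9.45e-08). Its signals were 160.1, 325 and 159 under drought and 852, 924 and 834 under irrigation in the tolerant bulk, against 10.8, 28.2 and 6.1 and 18.5, 97.9 and 82.0 in C306. TaAffx.22799.1.S1_at followed at 3.02 ± 0.38. In the other direction Ta.4152.1.S1_at stood at -1.94 ± 0.34 (limma adjusted p = 5.50e-05) and Ta.28255.1.A1_at at -1.90 ± 0.43 (0.000694). All 4 remained called without C306 drought arrays 1 and 3.

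**Figure D5:**
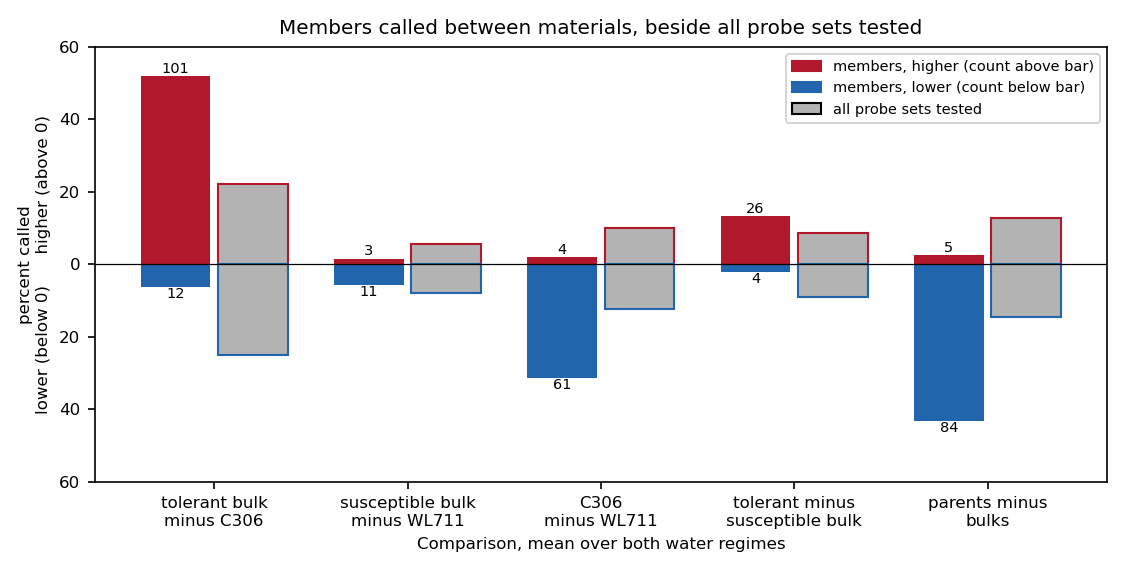
Bars give the percent of the 194 members tested (coloured, with the count) and of all 36669 probe sets tested (grey) that limma called higher (above 0) or lower (below 0) at an adjusted p of 0.05, for 5 comparisons of mean level over both regimes. The tolerant bulk against C306 has 101 members higher and 12 lower, and C306 against WL711 has 4 higher and 61 lower.

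Between the parents the members leaned the other way, and the size of the lean depended on which arrays were kept. Of the 3 arrays left out below, WL711 drought array 1 had the highest member median of its group, 9.78. C306 drought arrays 1 and 3, at 7.47 and 7.65, lay below array 2 at 8.43. Leaving them out therefore moves the difference between the parents upward, and which arrays are right was not tested. In C306, 4 members were called higher than in WL711 and 61 lower, or 2.06% and 31.4%, while of all probe sets tested 9.91% were higher and 12.2% lower, and the median member was -0.67. Without WL711 drought array 1, 12 were higher and 40 lower, beside 8.66% and 10.1% of all probe sets. Without C306 drought arrays 1 and 3, 5 were higher and 12 lower, beside 5.12% and 5.22%. Without all 3 arrays 25 were higher and 12 lower, beside 6.04% and 5.84%, with a median of -0.01. Of the 61 members lower in C306, 12 remained called in that last fit.

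Of the named members, LOC542862 was lower in C306 on both member probe sets (-0.94 ± 0.29 and -0.87 ± 0.30; limma adjusted p = 0.0212 and 0.0399), as were LOC543329 (-1.05 ± 0.34; 0.0270), LOC543499 (-0.90 ± 0.28; 0.0245) and LOC543236 (-0.63 ± 0.23; 0.0488). All 5 calls ended without C306 drought arrays 1 and 3 (limma adjusted p from 0.131 to 0.436), although LOC543236 itself then stood further from 0, at -0.71, while the others lay between -0.70 and -0.50. All but the first of them also ended without WL711 drought array 1 (0.0602 to 0.146), and that of LOC543236 without any 1 of 20 arrays. No named member was called higher.

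Some unnamed members differed between the parents whichever of these arrays were used. Ta.24841.2.S1_at had signals of 469, 674 and 278 under drought and 1551, 1377 and 1732 under irrigation in C306, against 4824, 1892 and 1882 and 6856, 6327 and 7166 in WL711. It stood at -2.33 ± 0.20 (limma adjusted p = 4.55e-09) and at -1.74 without the 3 arrays. Ta.3249.3.A1_at stood at -2.56 ± 0.37 and at -1.71 without them. Ta.9681.1.S1_at was higher in C306 by 1.48 ± 0.29 and by 1.70 without them. TaAffx.54780.1.S1_at was higher by 1.21 ± 0.30 (limma adjusted p = 0.00509). Once C306 drought arrays 1 and 3 were left out, it was no longer called (0.102).

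In the comparison of the bulks more members were called higher in the tolerant one, but this depended on the processing. Without a filter, or with centring on all probe sets, nearly as many members were called lower as higher. Those counts are given in the last section. Of 194 members, 26 were called higher in the tolerant bulk and 4 lower, or 13.4% and 2.06%, beside 8.56% and 9.08% of all probe sets, and the median member was 0.38. No named member was among them. The largest were Ta.9428.2.S1_a_at, higher by 2.03 ± 0.42 (limma adjusted p = 0.00143), and Ta.454.2.S1_a_at, higher by 1.69 ± 0.38 (0.00332), and the lowest were TaAffx.8804.2.S1_at at -1.26 ± 0.41 (0.0362) and Ta.4575.1.A1_at at -0.80 ± 0.22 (0.0118). The call of TaAffx.8804.2.S1_at ended without any 1 of 9 arrays. The bulks do not include the doubted arrays, but those arrays widen the spread that all groups share: without WL711 drought array 1 the count was 60 higher and 9 lower, beside 11.3% and 11.0% of all probe sets, at the same median.

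There were 8 members called both between the parents and between the bulks, 12.3% of the 65 called in the parents and 26.7% of the 30 called in the bulks. All 8 were lower in C306 than in WL711 and higher in the tolerant bulk than the susceptible one. Of the 65 calls in the parents 61 were lower, and of the 30 in the bulks 26 were higher, so shared calls would mostly fall on opposite sides anyway. The same overlap over all probe sets tested was not counted, and nothing is read from the directions of the 8. Among them was Ta.24841.2.S1_at, with 1529, 1552 and 1753 under drought and 9912, 8709 and 7988 under irrigation in the tolerant bulk, against 488, 583 and 474 and 3935, 4198 and 3972 in the susceptible bulk.

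The susceptible bulk and its susceptible parent WL711 differed in few members. In the bulk 3 were called higher and 11 lower, or 1.55% and 5.67%, beside 5.61% and 7.83% of all probe sets tested. The median member was -0.17, and 0.19 without WL711 drought array 1, when 27 were higher and 8 lower, beside 7.37% and 8.75% of all probe sets. TaAffx.54780.1.S1_at was higher in the susceptible bulk by 2.29 ± 0.30 (limma adjusted p = 6.74e-06), with signals of 101, 147 and 156 under drought and 563, 419 and 509 under irrigation, against 30.5, 11.0 and 17.7 and 77.8, 26.3 and 99.2 in WL711. TaAffx.106304.1.S1_at was higher by 1.56 ± 0.29 (0.000478). Ta.3249.3.A1_at (-1.88 ± 0.37), Ta.24841.2.S1_at (-1.64 ± 0.20), LOC543329 (-1.01 ± 0.34, adjusted p = 0.0479) and LOC606390 (-0.67 ± 0.18, adjusted p = 0.0134) were lower. The call of LOC543329 ended without WL711 drought array 1 (limma adjusted p = 0.134) and without any 1 of 16 other arrays.

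Seen over all 4 materials, C306 had the lowest mean level of a member in 133 of 194 cases, or 68.6%, against 30.0% of all probe sets tested. The tolerant bulk had the highest in 109, or 56.2%, against 29.5%. Both held at once for 94 members, or 48.5%, against 17.4%. Without the 3 arrays C306 was lowest for 79 members, or 40.7%, against 26.4%, the tolerant bulk highest for 116, or 59.8%, against 29.5%, and both held for 64, or 33.0%, against 15.2%. Both bulks lay above both parents for 54 members, or 27.8%, against 19.1%, and without the 3 arrays for 94, or 48.5%, against 21.0%. They lay below both for 28, or 14.4%, against 30.2%, and without the 3 arrays for 23, or 11.9%, against 32.8%.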

How the data were processed

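The authors deposited 1 intensity per probe set and array, on a linear scale, and GCOS 1.2 is the tool that the submitters' processing notes name. The mean of an array after trimming 2% at each end lay between 500.091 and 500.113, so arrays had been scaled to one mean. Detection calls were not used here. Precision is limited by the number of arrays. Of 61290 probe sets 175 were controls (identifiers beginning AFFX or RPTR).

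Members were taken on uncentred log2(signal + 16). For tests the dimmest 40% were left out, and arrays were centred on their median over the 36669 kept, since these ran from 7.84 to 8.22. limma 3.58.1 in R 4.3.3 fitted 1 mean per group with an intensity trend, over all 24 arrays, in 5 contrasts, two-sided, at an adjusted p of 0.05, and was tested on simulated data. Alternatives were other pseudocounts, filters and centrings, quantile normalization, no trend, a replicate block, and arrays left out.

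The annotation gave 1273 probe sets 1 gene symbol and none several. Of its 771 genes 770 were in the RefSeq table, used for names alone, and 101 had a descriptive name. Named genes were every named member, the 2 unnamed members of highest score, 2 probe sets on each side of the threshold, and per contrast up to 2 called members of largest change in each direction. Members, lists and tests were chosen with earlier results of these data known. No sequence is shown, since no table used here holds one.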

Additional observations from a re-analysis of the deposited data

Results flagged for a closer look

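The tolerant minus susceptible difference between the parents was set against that between the bulks, as a mean over both regimes, and 5 members were called higher and 84 lower in the parents' difference, or 2.58% and 43.3%, beside 12.7% and 14.6% of all probe sets tested. The median member stood at -1.03, beside -0.02 over all probe sets tested. It stood at -0.72 without C306 drought arrays 1 and 3, and at -0.36 without WL711 drought array 1 as well. Both of those fits keep 1 C306 drought array. The members named by the rule follow, each because limma's test of the difference itself passed.

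Ta.24841.2.S1_at stood at -3.75 ± 0.29 (limma adjusted p = 7.45e-10): its centred mean level was 1.76 in C306 and 4.09 in WL711, but 3.88 in the tolerant and 2.45 in the susceptible bulk. Ta.2852.3.S1_a_at stood at -3.01 ± 0.50 (9.40e-05), with -2.43 in C306 and -0.68 in WL711, and 0.77 in the tolerant and -0.49 in the susceptible bulk. TaAffx.54780.1.S1_at stood at 1.95 ± 0.43 (0.00141), with -1.04 in C306 and -2.25 in WL711, and -0.70 in the tolerant and 0.04 in the susceptible bulk. Ta.28255.1.A1_at stood at 1.66 ± 0.60 (0.0424), a call that ended without any 1 of 18 arrays.

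Of the named genes, LOC542862 (Ta.1197.1.S1_at) stood at -1.36 ± 0.41 (limma adjusted p = 0.0146), with 2.10 in C306 and 3.04 in WL711, and 3.02 in the tolerant and 2.60 in the susceptible bulk. RPL9 (LOC543077, Ta.14183.1.S1_at) stood at -0.90 ± 0.30 (0.0296), with 3.42 and 3.99 in C306 and WL711, and 4.09 and 3.76 in the tolerant and susceptible bulk. Without C306 drought arrays 1 and 3 these values were -0.97 (0.125) and -0.57 (0.221), and both calls ended. Without WL711 drought array 1 as well, LOC542862 was called again, at -0.56 (0.0283), and RPL9 was not, at -0.34 (0.310). The call of RPL9 also ended without any 1 of 7 arrays.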

How the results depend on the processing

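Of the 200 members, 136 stayed among the highest 200 scores with a pseudocount of 1, 154 with 64, 172 with centring, 161 with quantile normalization, 135 with means in place of medians, 146 to 193 without 1 array, 121 without C306 drought arrays 1 and 3, and 114 without WL711 drought array 1 as well, an alternative added after seeing the data. In each of these settings at least 193 members were lower in all 4 materials.

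Members called higher and lower, by setting. Tolerant bulk against C306: without 1 array 91 to 121 and 10 to 18; without C306 drought arrays 1 and 3, 65 higher; without the 3 arrays 91 higher and 25 lower. C306 against WL711: without 1 array 2 to 12 and 39 to 94, where 12 higher goes with WL711 drought array 1 left out, 39 lower with C306 drought array 1 or 3 and 94 lower with WL711 drought array 3; 2 higher with a pseudocount of 1, no filter or centring on all probe sets; 5.15% and 19.1% of all probe sets called when centred on all probe sets, beside 9.91% and 12.2%; 12 lower without C306 drought arrays 1 and 3; 25 and 12 without the 3. Tolerant against susceptible bulk: 16 to 60 and 1 to 9; 9 and 8 without a filter; 11 and 8 when centred on all probe sets, where 2.98% and 16.8% of all probe sets were called, beside 8.56% and 9.08%; 7 lower with no centring or quantile normalization; 2 lower with no trend; 83 and 20 without the 3. The larger value went with WL711 drought array 1 left out, and 40 were higher without tolerant bulk drought array 3 and 16 without array 2. Susceptible bulk against WL711: 2 to 27 and 6 to 23, where 27 goes with WL711 drought array 1 left out and 23 with array 2; 5 higher with 60% left out or no centring; 5 lower with no filter or centring on all probe sets; 6 lower with no trend; 38 and 13 without the 3. Parents against bulks: 3 to 11 and 70 to 103; 3 higher with no filter or no trend; 39 lower without C306 drought arrays 1 and 3; 20 higher without the 3. The causes were not tested.

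Replicate numbers did not pair the arrays: over 84 pairs of groups and numbers the deviations of same-numbered arrays correlated at -0.14 to 0.19, with a median of 0.003. With the replicate block 102 members were higher and 11 lower in the tolerant bulk than in C306, against 101 and 12. For named values, 0 of 1188 contrast values and 0 of 2108 drought values under other settings changed sign. Among them 143 contrast values no longer passed, and 49 drought values moved by more than the spread between arrays.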
